A study of Mus musculus with 96 samples.

Results

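Tnf, which encodes the inflammatory cytokine tumour necrosis factor, and Zfp36, which encodes the mRNA-binding protein tristetraprolin, were followed in RAW 264.7 cells, a mouse macrophage-like line. Members were the probes whose platform annotation names Tnf or Zfp36 as the gene: probes 4173, 12240 and 15709 for Tnf and probe 15710 for Zfp36, which is 4 of 16281 probes and 2 of 10698 named genes. RNA of treated cells and RNA of untreated cells of the same set and time were hybridised together on 2-colour arrays. There were 96 arrays: 16 combinations of a treatment and a time, with 3 sets per combination and both dye orientations per set.

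The groups were LPS with interferon gamma (LPS+IFNG), LPS with 2-methyl-thio-ATP (LPS+2MA), interferon gamma (IFNG), 2-methyl-thio-ATP (2MA) and LPS, each at 1, 2 and 4 h, with LPS also at 30 min. LPS, the bacterial lipopolysaccharide sensed by Toll-like receptor 4, was given at 100 ng (no volume is stated) together with 100 pM LPS-binding protein. IFNG was given at 5 nM and 2MA, an ATP analogue, at 500 uM in the channel labels, although 1 sample description has 500 nM. The labels do not say whether the sets were separate cultures, nor whether treatments share untreated RNA. The p-values therefore reflect only how much sets vary, and that variation may be technical. Results are from a cell line, and its response need not match that of primary macrophages.

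Tumour necrosis factor is made by macrophages within minutes of contact with bacterial products, and its mRNA carries an AU-rich element in the 3′ untranslated region. Tristetraprolin binds such elements and recruits deadenylases, which shortens the life of the mRNA, and mice without it overproduce the cytokine. In LPS-treated macrophages the p38-MK2 kinase pathway phosphorylates tristetraprolin and restrains it, while the Zfp36 gene itself is induced. The arrays measured RNA ratios only, so neither the protein, nor its phosphorylation, nor mRNA decay was measured.

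Each value is the log2 ratio of treated over untreated RNA, averaged over both dye orientations of a set. A value of exactly 0 was read as missing, and between 1277 and 2773 probes per array had it. limma tested the 13698 probes that had 2 or more of the 3 set values in each of the groups, Tnf probes 12240 and 15709 and Zfp36 among them. Tnf probe 4173 did not pass: it had a value on 77 of 96 arrays, and all 19 missing values were on arrays with LPS. Ratios give no level of expression, so no probe is compared with another in level. Of the macrophage markers, Cd68, Adgre1, Csf1r, Cd14, Fcgr1, Tyrobp and Spi1 had a value on 96 arrays, Mpeg1 on 15 and Lyz2 on 3, and probes for T cell, B cell and fibroblast markers also had values (93 to 96 arrays), so a value on this platform does not mark a cell type.

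The promoters are shown because the ratios of the 2 genes differed most under IFNG. Both genes lie on the minus strand of GRCm38.p6, Tnf at chr17:35199367-35202007 and Zfp36 at chr7:28376784-28379228. The 250 bases before each start, from RefSeq, are printed 5′ to 3′ on the gene's strand, with matches to the reported motifs in capitals. The Tnf window is chr17:35202008-35202257 and the Zfp36 window is chr7:28379229-28379478.
Tnf: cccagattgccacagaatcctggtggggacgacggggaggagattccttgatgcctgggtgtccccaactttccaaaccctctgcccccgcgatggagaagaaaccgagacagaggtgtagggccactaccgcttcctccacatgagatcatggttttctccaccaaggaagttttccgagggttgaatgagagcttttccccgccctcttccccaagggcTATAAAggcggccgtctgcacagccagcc
Zfp36: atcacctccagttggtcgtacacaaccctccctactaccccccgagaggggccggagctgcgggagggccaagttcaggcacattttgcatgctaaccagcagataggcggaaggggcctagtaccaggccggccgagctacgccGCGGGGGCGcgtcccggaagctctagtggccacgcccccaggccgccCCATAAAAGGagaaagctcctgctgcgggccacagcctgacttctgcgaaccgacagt

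The motifs reported, each searched on both strands, were the NF-kB site (named only), CRE (TGACGTCA), AP-1 (TGANTCA), the EGR site (GCGNGGGCG), the SRF CArG box (named only) and the TATA box (TATAAA). They were chosen after the promoter sequences had been seen. The Tnf window held a TATA box, which 12.4% of 32851 promoters of the same length hold. The Zfp36 window held an EGR site from -105 to -97 relative to the start and a CArG box from -58 to -49. The CArG box read on both strands as 1 site, and no matches overlapped. These motifs occurred in 4.7% (EGR) and 1.47% (CArG) of all promoters. Neither window held an NF-kB match, which 5.93% of promoters hold, and a window without a match says only that these letters are not in it.

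LPS raised Tnf within 30 min and the ratio stayed high through 4 h. With probe 15709 the set values were 4.19, 4.35 and 4.76 at 30 min, 3.69, 3.54 and 4.20 at 1 h, 4.17, 4.24 and 4.59 at 2 h, and 2.74, 3.30 and 4.22 at 4 h, in the order of sets 1 to 3. All 12 values were far above 0, and set 3 was the highest at each time. The mean was 4.43 ± 0.30 at 30 min (SD, n = 3), or 21.6-fold (limma adjusted p = 3.45e-13), and 3.42 ± 0.75 at 4 h, or 10.7-fold (adjusted p = 2.24e-11). The probe was called higher at all 4 times, where 0.781% (30 min), 3.16% (1 h), 7.62% (2 h) and 12.6% (4 h) of tested probes were. By size of rise it had rank 2 of 13698 probes at 30 min and rank 43 at 4 h.

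Tnf probe 12240 followed the same course at a smaller amplitude. Its means were 3.50 ± 0.48 at 30 min, 3.07 ± 0.53 at 1 h, 3.41 ± 0.18 at 2 h and 2.96 ± 0.42 at 4 h, all called by limma (largest adjusted p 8.42e-10, at 1 h). Probe 4173 ran from 2.10 to 4.18 over the 15 LPS arrays on which it had a value, with no missing value replaced. The differences between neighbouring times did not pass the test for either tested probe (0.737%, 2.42% and 6.68% of all probes passed for 1 h minus 30 min, 2 h minus 1 h and 4 h minus 2 h), and the F test over the 4 times gave adjusted p = 0.353 for probe 15709 and 0.887 for probe 12240. With all sets 16.2% of all probes passed this F test. Without set 3 it passed for probe 15709 (adjusted p = 0.0135), as did the 4 h minus 2 h difference (-1.19, adjusted p = 0.0185). With quantile normalisation between arrays, which gives all arrays the same distribution of ratios, the F test passed for both probes (adjusted p = 0.00157 and 0.0137).

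Zfp36 also rose under LPS at every time, with its lowest mean at 2 h. Its set values were 3.56, 3.81 and 4.25 at 30 min, 2.68, 2.45 and 3.76 at 1 h, 1.77, 2.02 and 2.70 at 2 h, and 3.02, 3.18 and 3.67 at 4 h. All 2 h values lay below all 4 h values and below all 30 min values, while 1 h overlapped with 2 h. The means were 3.87 ± 0.35, 2.96 ± 0.70, 2.16 ± 0.48 and 3.29 ± 0.34 (SD, n = 3 each), with a limma adjusted p of 5.08e-08 or smaller against 0 at each time. The ratio thus varied with time (F test, adjusted p = 0.00563). Without set 1 or set 2, however, the F test gave 0.108 and 0.2, and with zeros kept as 0 it gave 0.117. All 3 missing Zfp36 values were at 1 h of LPS+IFNG or LPS+2MA. Keeping zeros therefore changed no Zfp36 value under LPS or 2MA, but all groups share 1 estimate of the spread. No step between neighbouring times passed in the main fit. It gave -0.91 for 1 h minus 30 min and -0.80 for 2 h minus 1 h (limma adjusted p = 0.575 and 0.418). The step between 2 h and 4 h was 1.13 (SE 0.37, 4 h minus 2 h) with an adjusted p of 0.0632, and with the set as a replicate block 0.0112. Without set 3 and without the block its adjusted p was 0.00648.

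**Figure D1:**
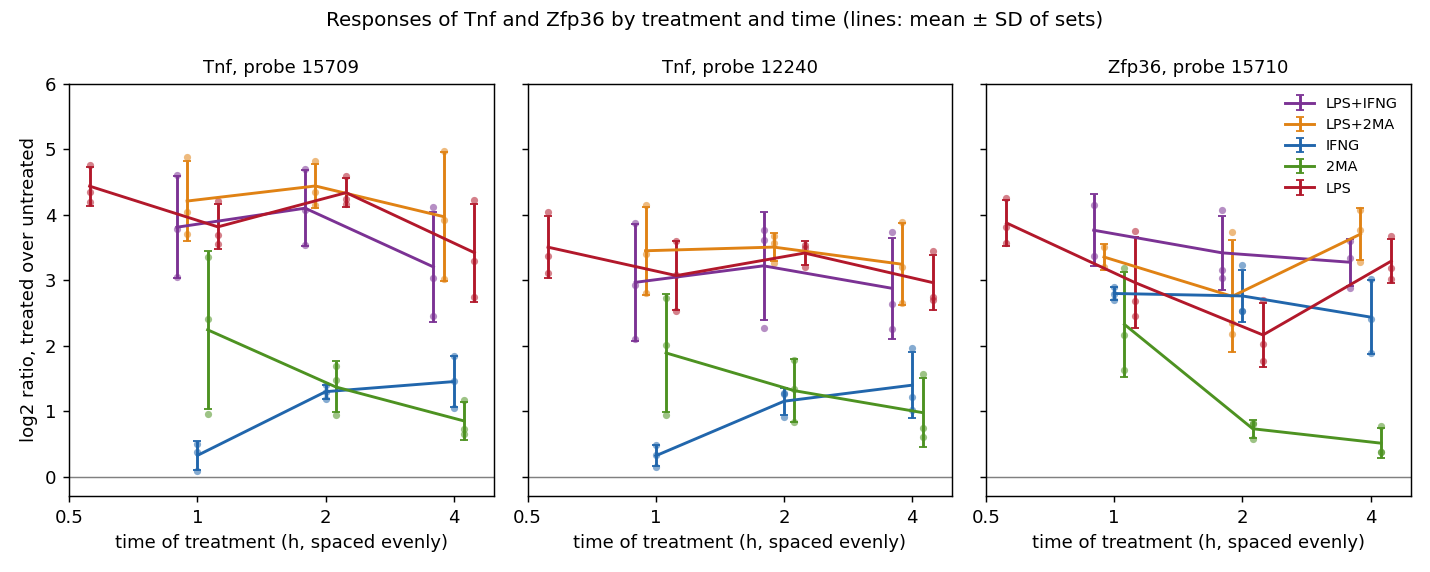
Log2 ratio of treated over untreated RNA for Tnf probes 15709 and 12240 and for Zfp36 probe 15710, by time of treatment. Points are sets and lines join means with SD. Under LPS, Zfp36 had its lowest mean at 2 h (2.16), where Tnf probe 15709 had 4.34, and under IFNG Zfp36 stayed between 2.43 and 2.80.

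IFNG raised Zfp36 at 1 h, when Tnf was not called. Zfp36 set values under IFNG were 2.70, 2.90 and 2.79 at 1 h, 2.53, 2.52 and 3.22 at 2 h, and 1.88, 2.41 and 3.01 at 4 h. All 9 values were above 1.8, and the 1 h values were the most alike of the 3 times. The means were 2.80 ± 0.10, 2.76 ± 0.40 and 2.43 ± 0.57, or 6.94-fold, 6.77-fold and 5.41-fold (limma adjusted p = 7.43e-10, 3.54e-10 and 3.88e-09), where 0.956%, 2.85% and 6.38% of tested probes were called higher. At 1 h the probe had rank 6 of 13698 by rise.

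Tnf under IFNG was called at 2 and 4 h and not at 1 h, but the change over time did not pass the test. Probe 15709 had 0.38, 0.50 and 0.08 at 1 h, 1.29, 1.19 and 1.41 at 2 h, and 1.05, 1.46 and 1.84 at 4 h. The 1 h values lay below every later value. The 1 h mean of 0.32 did not pass the test (adjusted p = 1, 95% interval -0.33 to 0.97), the 2 h mean of 1.30 (adjusted p = 0.00998) and the 4 h mean of 1.45 (adjusted p = 0.00107) did. Probe 12240 gave 0.32, 1.15 and 1.40 in the same order, with adjusted p of 1, 0.0206 and 0.000977, and probe 4173 gave 0.19, 1.10 and 1.21. The 2 h minus 1 h difference had an adjusted p of 1 for both tested probes (0.97 for 15709 and 0.83 for 12240), where 0.438% of probes passed, and the F test over the 3 times gave 0.392 and 0.44, where 3.66% passed. With only the IFNG groups in the fit both tests passed for both probes (F test, adjusted p = 0.00281 and 0.0141). Without set 1 or set 2 the 2 h rise of probe 15709 was no longer called (1.30 and 1.35, adjusted p = 0.122 and 0.203), nor that of probe 12240 (1.09 and 1.27, adjusted p = 0.388 and 0.09).

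Tnf was lower under IFNG than under LPS at each matched time. For Tnf probe 15709, IFNG minus LPS was -3.49 at 1 h, -3.04 at 2 h and -1.97 at 4 h (SE 0.46 each, limma adjusted p = 8.64e-07, 4.93e-06 and 0.00233). Probe 12240 gave -2.75, -2.26 and -1.57, all called, and 1.61%, 3.76% and 5.31% of probes were called lower in these contrasts. For Zfp36 the same contrast was -0.17 at 1 h (95% interval -0.92 to 0.59), 0.60 at 2 h (-0.16 to 1.35) and -0.86 at 4 h (-1.61 to -0.10), with adjusted p of 1, 0.496 and 0.178. None of these intervals shows that the 2 ligands act alike on Zfp36. At 4 h all IFNG values lay below all LPS values, and the difference was called without set 3 (-0.96, adjusted p = 0.0279) but not with the set as a replicate block (0.0553). At 2 h IFNG lay above LPS by 0.51 to 0.76 within each set number, and with quantile normalisation between arrays the difference was 1.25 (adjusted p = 0.00974). With that normalisation the 4 h difference was 0.13 (adjusted p = 1). Within sets 1 to 3 the 4 h difference of Tnf was -1.69, -1.84 and -2.38 for probe 15709. Probe 12240 gave -1.52, -1.68 and -1.49. With fewer sets some of these calls were lost at a like size. Without set 2 probe 15709 gave -2.03 (limma adjusted p = 0.0753). Without set 1 or set 2 probe 12240 gave -1.59 and -1.51 (0.205 and 0.111). With quantile normalisation between arrays the 4 h values were -1.07 and -0.71 for the 2 probes, neither called.

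2MA raised both genes at 1 h, with wide spread between sets. Tnf probe 15709 had 3.36, 2.41 and 0.96 at 1 h, 1.69, 1.48 and 0.94 at 2 h, and 0.65, 0.72 and 1.18 at 4 h. Set 3 was lowest at 1 and 2 h and highest at 4 h. Its means were 2.24 ± 1.21 (limma adjusted p = 1.9e-05), 1.37 ± 0.39 (0.0152) and 0.85 ± 0.29 (0.233, not called), where 0.891%, 1.15% and 1.43% of probes were called higher. Probe 12240 gave 1.89, 1.31 and 0.98, with adjusted p of 0.000146, 0.0148 and 0.1. Probe 4173, which was not tested, had means of 1.29 ± 1.06, 1.30 ± 0.50 and 0.75 ± 0.21. Its set values at 1 h were 2.05, 1.73 and 0.08, so it had no rise in set 3 and no higher mean at 1 h than at 2 h. Without set 1 the 1 h rise was not called (1.68 and adjusted p = 0.12 for probe 15709, 1.47 and 0.526 for probe 12240). The call at 2 h was lost without set 1 (1.21 and 0.735, 1.08 and 1 in the same order) and without set 2 (1.31 and 0.142, 1.30 and 0.0702).

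Zfp36 under 2MA was called at 1 h and not later. Its set values were 3.19, 2.16 and 1.62 at 1 h, 0.80, 0.57 and 0.81 at 2 h, and 0.38, 0.38 and 0.78 at 4 h. The 1 h values lay above all later values. The 1 h mean of 2.32 ± 0.80 was called (5.00-fold, limma adjusted p = 2.07e-07), and the means of 0.73 at 2 h (0.276) and 0.51 at 4 h (0.525) were not. The F test over the 3 times gave adjusted p = 0.0271, where 0.285% of probes passed, and without set 1 or set 2 it gave 1 and 0.139, and with zeros kept as 0 0.276.

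Set against LPS, 2MA gave lower ratios of both genes at 2 and 4 h, and some of these calls depended on sets or on the processing. The 4 h call of Zfp36 and the 2 h call of Tnf probe 15709 held with each set left out (highest limma adjusted p 0.00161 and 0.00702). For Tnf probe 15709, 2MA minus LPS was -1.57 at 1 h (adjusted p = 0.0706, and 0.0257 with the set as a replicate block), -2.97 at 2 h (1.21e-05) and -2.57 at 4 h (4.61e-05). Probe 12240 gave -1.18 (0.239), -2.10 (0.00126) and -1.98 (0.000853), and without set 1 the 2 h and 4 h differences were -2.27 (0.0533) and -1.91 (0.0567). For Zfp36 the contrast was -0.64 at 1 h (0.671), -1.43 at 2 h (0.015) and -2.78 at 4 h (4.15e-07). The 2 h difference was not called without set 1 (-1.66, limma adjusted p = 0.0541), without set 2 (-1.43, 0.188) or with zeros kept as 0 (-1.43, 0.144). With zeros kept the Zfp36 values of both groups were unchanged, and the SE was 0.54 instead of 0.37. With quantile normalisation between arrays the 4 h difference of Tnf was -1.11 for probe 15709 and -0.37 for probe 12240 (limma adjusted p = 0.15 and 0.8). The 2 h difference of probe 12240 was -1.03 (0.233), and none of these was called. That normalisation gives all arrays the same distribution of ratios, whether a treatment changed few or many probes. At 1, 2 and 4 h, 1.18%, 2.96% and 7.28% of probes were called lower in these contrasts.

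In all 6 dual-ligand groups both tested Tnf probes and Zfp36 were called higher than untreated cells, where 4.48%, 9.88% and 15.2% of tested probes were under LPS+IFNG at 1, 2 and 4 h and 3.49%, 8.48% and 14.8% under LPS+2MA. The means of Tnf probe 15709 were 3.81, 4.10 and 3.20 under LPS+IFNG and 4.21, 4.44 and 3.97 under LPS+2MA. Those of Zfp36 were 3.76, 3.42 and 3.27 under LPS+IFNG and 3.35, 2.75 and 3.70 under LPS+2MA, with 2 sets at 1 h. There set 3 had a Zfp36 value in 1 orientation under LPS+IFNG and in neither under LPS+2MA, and both were required. Over the 5 arrays with a value under LPS+IFNG at 1 h the mean was 3.92.

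With IFNG added to LPS, no change in the Tnf ratio passed the test. Probe 15709 had 3.78, 3.05 and 4.60 at 1 h under LPS+IFNG, against 3.69, 3.54 and 4.20 under LPS. At 2 h it had 4.07, 3.53 and 4.70 under LPS+IFNG, against 4.17, 4.24 and 4.59 under LPS, and at 4 h 2.46, 3.04 and 4.11 under LPS+IFNG, against 2.74, 3.30 and 4.22 under LPS. The groups overlapped at each time. The differences were -0.01, -0.24 and -0.22, with 95% intervals of -0.93 to 0.92, -1.16 to 0.68 and -1.14 to 0.70, and probe 12240 gave -0.10, -0.20 and -0.09. None was called, where 1.04%, 2.64% and 4.18% of probes were.

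For Zfp36, LPS+IFNG lay above LPS at 2 h in every set. Its set values at 2 h were 3.03, 3.15 and 4.07 under LPS+IFNG, against 1.77, 2.02 and 2.70 under LPS, and the groups did not overlap. Within sets 1 to 3 the difference was 1.26, 1.14 and 1.37. Its mean was 1.25 (SE 0.37, 2.39-fold). The limma adjusted p was 0.0617 without pairing of sets, and 0.0085 with the set as a replicate block. In that contrast 2.64% of probes were called in either direction. Without set 3 and without the block the adjusted p was 0.0164 (1.20). At 1 h the 2 sets with a value had 4.15 and 3.38 under LPS+IFNG, against 2.68, 2.45 and 3.76 under LPS, a difference of 0.80 (95% interval -0.05 to 1.64), which was called only without set 3 (1.19, adjusted p = 0.0277). At 4 h the values were 2.89, 3.34 and 3.59 under LPS+IFNG, against 3.02, 3.18 and 3.67 under LPS, a difference of -0.02 (-0.77 to 0.74).

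Adding 2MA to LPS gave differences of 0.39, 0.10 and 0.55 for Tnf probe 15709 at 1, 2 and 4 h, and 0.38, 0.09 and 0.28 for probe 12240. None was called, where 0.117%, 0.0511% and 0.314% of probes were. The intervals of probe 15709 were -0.53 to 1.32, -0.82 to 1.02 and -0.37 to 1.47. Within sets, LPS+2MA lay above LPS in 8 of 9 pairs for probe 15709, 8 of 9 for probe 12240 and 4 of 4 for probe 4173. Zfp36 had 3.50 and 3.21 at 1 h, 2.17, 2.35 and 3.74 at 2 h and 3.28, 3.76 and 4.07 at 4 h under LPS+2MA, with LPS overlapping at each time. The differences of 0.39, 0.59 and 0.41 were not called, with 95% intervals of -0.46 to 1.23, -0.17 to 1.35 and -0.34 to 1.17. Within a set, LPS+2MA lay above LPS in all 8 pairs with a value, by 0.26 to 1.04, but with the set as a replicate block the differences were not called either (adjusted p = 1, 0.738 and 0.852). The 1 h difference sets 2 sets against 3, and was 0.79 without set 3, which has no LPS+2MA value. Within LPS+2MA, the 4 h minus 2 h difference of Zfp36 was 0.95 with adjusted p = 0.123, and 0.0314 with the set as a replicate block, where 8.34% of probes passed without the block. Without set 3 that difference was 1.26 (adjusted p = 0.00415), and the 2 h minus 1 h difference was -1.09 (0.0248).

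The dual treatments were also set against the second ligand by itself, and the difference between the 2 genes was not tested in these contrasts. For Tnf probe 15709, LPS+IFNG minus IFNG was 3.48, 2.80 and 1.75 at 1, 2 and 4 h (limma adjusted p = 8.91e-07, 2.34e-05 and 0.00714), and for Zfp36 it was 0.97, 0.66 and 0.84 (0.477, 0.425 and 0.178). The contrasts called 1.88%, 4.29% and 5.85% of probes higher. The 4 h difference of probe 15709 was not called without set 1 (1.93, limma adjusted p = 0.0567) or without set 2 (1.84, 0.0989). The 4 h difference of Zfp36 passed without set 3 (0.97, 0.0267). LPS+2MA minus 2MA was 1.97, 3.07 and 3.12 for Tnf probe 15709 (0.0104, 6.45e-06 and 1.24e-06), and 1.03, 2.02 and 3.19 for Zfp36 (0.489, 0.00026 and 1.77e-08). Without set 2 or set 3 the 1 h difference of Tnf probe 15709 was 2.30 and 0.99 (adjusted p = 0.128 and 0.189), and with probe 12240 it was 1.56 (0.0617). In those contrasts 1.27%, 3.2% and 8.91% of probes were called higher. With quantile normalisation between arrays LPS+IFNG minus IFNG of Tnf probe 15709 was 1.43 at 2 h and 0.61 at 4 h (adjusted p = 0.0642 and 0.868), and LPS+2MA minus 2MA was 0.37 at 1 h and 1.30 at 4 h (0.925 and 0.0673), so that those 4 calls were lost.

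The dual response was also set against the sum of both single responses. These are log2 ratios, so the sum stands for the product of the 2 folds. A dual response below it can still equal or exceed the added folds. At 1 h the Zfp36 folds under LPS+IFNG, IFNG and LPS were 13.6, 6.94 and 7.80. They were 10.7, 6.77 and 4.48 at 2 h, and 9.66, 5.41 and 9.79 at 4 h. Additivity of folds was not tested. For Zfp36 at 4 h, LPS+IFNG was 3.27 ± 0.36, against 2.43 under IFNG and 3.29 under LPS, which is 2.45 below their sum (-2.45, SE 0.46, limma adjusted p = 0.000498), where 1.92% of probes were called lower. Without set 2 the value was -2.55 (adjusted p = 0.0656). At 1 and 2 h the deviation was -2.00 (0.167) and -1.50 (0.235), where 0.102% and 0.343% of probes were called. Tnf probe 15709 gave -0.33, -1.53 and -1.67 (1, 0.496 and 0.123), and without set 3 the 2 h and 4 h values of -1.65 and -1.53 were called (0.0471 and 0.0232). For LPS+2MA no deviation was called in the fit to all set values, where 0.0219%, 0.0292% and 0.0949% of probes were, with Tnf probe 15709 at -1.85, -1.27 and -0.30 and Zfp36 at -1.93, -0.14 and -0.10. Without set 3 the 1 h values of -2.63 (Tnf probe 15709, adjusted p = 0.00552) and -1.89 (Zfp36, 0.0193) were called. With quantile normalisation between arrays the 1 h values were -3.67 and -3.62 (Tnf probe 15709 and Zfp36, adjusted p = 0.000108 and 2.71e-06), and Tnf probe 15709 was also called at 2 h (-2.49, 0.0301). The effect of the added ligand at 4 h minus that at 1 h was not called for any tested probe (lowest adjusted p 0.999), where 1.28% of probes were for IFNG and 0.0073% for 2MA. Likewise LPS+2MA minus LPS+IFNG was not called at any time (lowest adjusted p 0.565), where 1.28%, 2.29% and 4.61% of probes were.

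The difference between the Tnf response (mean of probes 12240 and 15709) and the Zfp36 response shows where the genes parted. It is a difference of 2 ratios and carries no level. Under LPS the set values were 0.22, -0.08 and 0.15 at 30 min, 0.70, 0.58 and 0.14 at 1 h, 2.09, 1.71 and 1.34 at 2 h, and -0.28, -0.19 and 0.17 at 4 h. All 2 h values lay above all others. The means were 0.10 ± 0.15, 0.48 ± 0.30, 1.71 ± 0.37 and -0.10 ± 0.24, and the exact permutation test over times gave p = 0.00156, or 0.00468 adjusted over 3 treatments. Without set 1 or set 2 the adjusted p was 0.257 each, where the smallest p that 8 values allow is 0.00952, and without set 3 it was 0.0286.

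LPS+2MA had a like shape, with means of 0.13, 1.22 ± 0.65 and -0.10 ± 0.42 at 1, 2 and 4 h, but the exact permutation test gave p = 0.0571 (0.0857 adjusted). LPS+IFNG had means of -0.80, 0.24 ± 0.54 and -0.23 ± 0.49 (p = 0.132, also adjusted, exact permutation). IFNG had -2.48 ± 0.17, -1.53 ± 0.32 and -1.01 ± 0.23, and 2MA -0.26 ± 0.38, 0.61 ± 0.47 and 0.40 ± 0.18. All 9 IFNG values were below -0.7, and every one lay below every value of LPS.

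**Figure D2:**
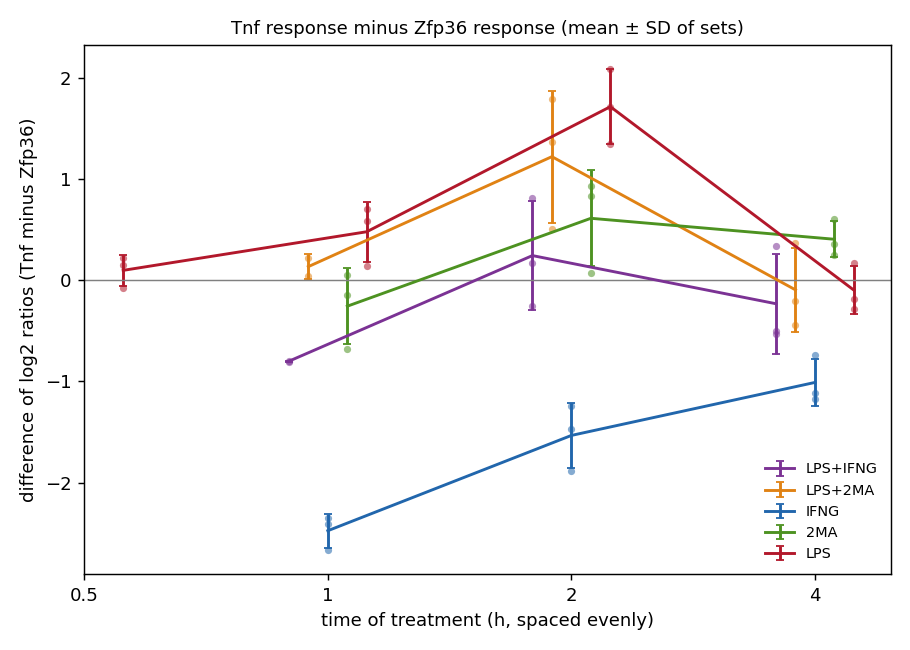
Difference of the log2 ratios, Tnf (mean of probes 12240 and 15709) minus Zfp36, by time of treatment. Points are sets and lines join means with SD. LPS peaks at 2 h with a mean of 1.71, and IFNG lies lowest throughout, from -2.48 at 1 h to -1.01 at 4 h.

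The treatments were compared in this difference by an exact permutation test of sets within each time, two-sided, over the 4 pairs with LPS. This test was added after the values had been seen. All 4 pairs share the LPS sets. IFNG minus LPS averaged -2.37 over 1, 2 and 4 h, with an exact permutation p = 0.00025, the smallest that the assignments allow, and 0.001 adjusted over the 4 pairs. LPS+IFNG minus LPS averaged -0.96 (exact permutation p = 0.00275, adjusted 0.0055), from -1.28 at 1 h and -1.47 at 2 h to -0.13 at 4 h. Without set 1 it was -0.94 (exact permutation, adjusted p = 0.0741), without set 2 -0.83 (0.0926), and with zeros kept as 0 it was -0.65 (0.125). LPS+2MA minus LPS was -0.28 (adjusted exact permutation p = 0.15) and 2MA minus LPS -0.44 (0.109). The last depended on the Tnf probe, with -0.75 for probe 15709 (exact permutation, adjusted p = 0.0147) and -0.14 for probe 12240 (0.566).

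**Figure D3:**
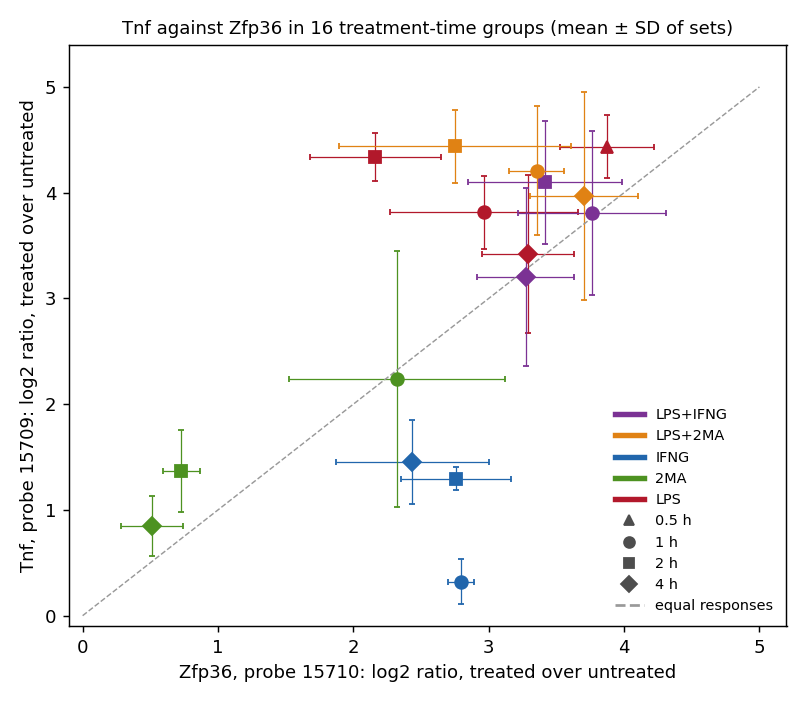
Mean log2 ratio of Tnf probe 15709 against that of Zfp36 probe 15710 in the 16 groups, with SD over sets on both axes and a dashed line of equal responses. The 10 groups with LPS lie from 3.20 to 4.44 on the Tnf axis, and IFNG at 1 h has 0.32 for Tnf and 2.80 for Zfp36.

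By the order of group means, Tnf probe 15709 placed all 10 groups with LPS (3.20 to 4.44) above all 6 without it (0.32 to 2.24). Zfp36 mixed them: LPS at 2 h (2.16) was in place 14 of 16, under IFNG at 1 h (2.80), 2 h (2.76) and 4 h (2.43) and under 2MA at 1 h (2.32). Of these neighbours IFNG at 2 h was set against LPS at 2 h with a difference of 0.60 that did not pass the test (limma adjusted p = 0.496, against 0.00974 with quantile normalisation), and the others were not tested against it. Over all 16 groups the correlation of the Tnf and Zfp36 means was 0.622. Over the 10 groups with LPS it was -0.204, and over the 6 without LPS -0.0166. These are descriptions, as the groups share sets.

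The Tnf probes moved together, with a correlation of 0.98 between probes 12240 and 15709 over 48 set values of the same RNA. Probe 15709 gave the larger ratio under LPS: it exceeded probe 12240 by 0.33 to 0.93 in the 10 groups with LPS, in 29 of 30 sets, and by -0.13 to 0.35 in the 6 without. The ratio was above 0 on all 96 arrays for probe 15709 and on all 93 with a value for Zfp36. The median difference between orientations (Cy5 minus Cy3) was -0.12 for probe 15709, 0.17 for probe 12240 and -0.22 for Zfp36. Set 3 was highest in 10 of 10 groups with LPS for Tnf probe 15709, in 9 of 10 for probe 12240 and in 8 of 8 for Zfp36, a pattern whose source was not tested.

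The genes whose set values were most like those of Tnf, by Pearson r over the 48 set values, were Nfkbiz (0.935), which encodes an atypical inhibitor-family regulator of NF-kB, Clec4e (0.922), a C-type lectin receptor, Cd22 (0.912), a sialic acid-binding receptor, Tnfaip3 (0.904), a ubiquitin-editing inhibitor of NF-kB signalling, and Ppp1r15a (0.901), a phosphatase subunit of the stress response. Zfp36 was 98th of 9717 genes compared with Tnf (0.619). Those most like Zfp36, of 9675 genes compared, were Atf3 (0.748), a stress-induced transcription factor, Lynx1 (0.633), Tnfaip3 (0.629), Cflar (0.62), an inhibitor of caspase-8 activation, with Klf6 (0.619), a zinc-finger transcription factor, and Tnf itself (0.619) sharing place 5. The comparisons with Zfp36 named here used 46 set values, except that of Lynx1 with 40. The points share RNA, sets and dyes.
Under LPS+IFNG at 1 h Atf3 had a mean of 3.06, against 0.86 under IFNG and 1.80 under LPS, and Nfkbiz had 5.04 under LPS+IFNG, against 0.56 under IFNG and 5.04 under LPS.

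Of the mRNAs known as Zfp36 targets, 17 of 21 listed genes were tested. At 1 h of LPS 11 rose and none fell, where 3.13% of all genes rose and 2.48% fell, with a list median of 1.23 beside -0.01 for all genes. Dusp1, a phosphatase that switches off p38, had 3.94 ± 0.46 and Il1b, an inflammatory cytokine, 2.90 ± 0.40 (limma adjusted p = 1.33e-14 and 2.01e-12). At 4 h of LPS 12 rose and none fell, where 12.7% of all genes rose and 15.9% fell, with a median of 2.15. Il1b had 4.75 ± 0.11 and the cytokine Il6 4.50 ± 0.10 (1.07e-19 and 1.66e-21). Il6 had 0.14 ± 0.21 at 1 h (0.901).

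Under IFNG at 1 h none of the 17 listed targets rose and 4 fell, where 1% of all genes rose and 0.129% fell. The 4, named after their values were seen, were the transcription factor Myc (-1.43, limma adjusted p = 7.1e-05), Dusp1 (-0.98, 0.0352), the transcriptional repressor Bcl6 (-0.88, 0.00539) and Fos (-0.63, 0.00791), a subunit of AP-1. At 4 h of IFNG 5 rose and none fell, where 6.31% rose and 5.99% fell. Ptgs2, the inducible cyclooxygenase, named after its values were seen, was among those that rose, at 2.16 ± 0.51. Under 2MA at 1 h 4 rose and none fell, where 0.794% rose and 0.612% fell, with Myc at 2.54 ± 0.42 and Dusp1 at 1.48 ± 0.87. At 30 min of LPS, with Zfp36 at 3.87, 5 rose and none fell, where 0.725% of all genes rose and 0.319% fell. At 1 h of LPS+IFNG, with Zfp36 at 3.76, 11 rose and none fell, where 4.43% of all genes rose and 3.19% fell. At 2 h of IFNG, with Zfp36 at 2.76, none rose and 2 fell. Of the 11593 gene rows 398 were called there in either direction. The difference between the counts of the treatments was not tested, nor was a link of any count to the Zfp36 ratio.

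**Figure D4:**
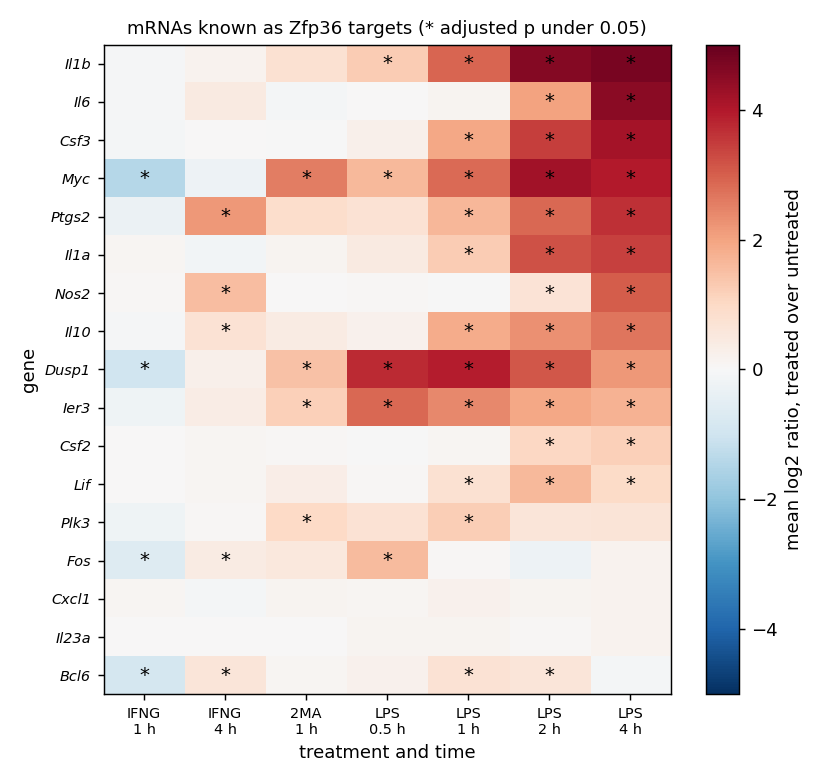
Mean log2 ratio of treated over untreated RNA for the 17 tested mRNAs known as Zfp36 targets (rows) by treatment and time (columns). A star marks a limma adjusted p under 0.05. Under IFNG at 1 h the starred genes are Myc, Dusp1, Bcl6 and Fos, all below 0, and under LPS at 4 h 12 of 17 are starred.

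Of the genes of AU-rich element binding and mRNA decay, 14 of 27 listed were tested. At 1 h of LPS, where 3.13% of all genes rose and 2.48% fell, 2 of them rose: the Zfp36 paralog Zfp36l1 (1.45 ± 0.51, limma adjusted p = 7.15e-09) and Cnot4 (0.34 ± 0.16, 0.0475), an E3 ligase linked to the deadenylase complex. At 4 h of LPS 4 rose and 3 fell, where 12.7% of all genes rose and 15.9% fell. Zfp36l1 (1.97 ± 0.29) and Dcp2, the decapping enzyme (1.46 ± 0.32), had the largest rises, while the paralog Zfp36l2 (-0.53 ± 0.06) and the deadenylase Cnot8 (-0.28 ± 0.18) had the largest falls. At 30 min of LPS and at 1 h of IFNG none of the 14 was called, and Zfp36l1 was at 0.08 ± 0.07 and 0.27 ± 0.20. Of all genes 0.725% rose and 0.319% fell at 30 min of LPS, and 1% and 0.129% at 1 h of IFNG. With shares that low, none of 14 does not set these genes apart.

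Of the TNF shedding, receptor and signalling genes 14 of 17 were tested, and 5 rose at 1 h and 11 at 4 h of LPS, with 0 and 1 falling, where 3.13% of all genes rose and 2.48% fell at 1 h, and 12.7% and 15.9% at 4 h. Traf1, an adaptor of TNF receptors, had 2.62 ± 0.25 at 1 h and 2.46 ± 0.35 at 4 h, and Tnfaip3 had 1.99 ± 0.44 at 1 h (limma adjusted p = 6.63e-11). Tnfrsf1b, the second TNF receptor, had 1.06 ± 0.12 at 1 h and 3.43 ± 0.14 at 4 h (1.15e-07 and 2.37e-22). Fadd, a death-domain adaptor, had -0.31 ± 0.15 at 4 h (0.00888).

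Beside Tnf on the chromosome, 4 of 6 listed neighbours were tested. At 1 h of LPS 1 rose, Nfkbil1 (0.40 ± 0.08, limma adjusted p = 0.0233), and at 4 h 3 rose, where 3.13% and 12.7% of all genes did. Nfkbil1 (1.07 ± 0.14) and Ltb (1.00 ± 0.73), which encodes lymphotoxin beta, had the largest rises at 4 h. At 30 min of LPS none of the 4 was called, where 0.725% of all genes rose and 0.319% fell. With shares that low, this does not set the neighbours apart.

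Of the TLR4 and p38-MK2 signalling genes 17 of 21 were tested, Dusp1 among them as in the target list. At 1 h of LPS 3 rose and 1 fell, where 3.13% of all genes rose and 2.48% fell, with Dusp2, a nuclear MAP kinase phosphatase, at 2.50 ± 1.15 and the LPS receptor Tlr4 at -0.47 ± 0.16 (limma adjusted p = 4.29e-09 and 0.0275). At 4 h 8 rose and 3 fell, where 12.7% of all genes rose and 15.9% fell, with Map3k8, the kinase upstream of ERK in LPS signalling, at 2.51 ± 0.21, and Map2k6 and Mapk14, a p38 activator and p38 alpha, at -0.96 ± 0.09 and -0.62 ± 0.24 (3.12e-16, 7.14e-11 and 1.89e-05).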

How the data were processed

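The deposited values are log2 ratios of Cy5 over Cy3, and the labels give the dye of the treated RNA. That they are log2 follows from the values, whose largest, 6.643856, is the log2 of 100. The authors' image analysis, background correction and normalisation were steps not given in the sources used here. Every array's median was 0 with the exact 0 values counted. Without them the medians ran from -0.018 to 0.044, so arrays were centred near 0 by a step that is not stated. Gene names came from the platform annotation, and coordinates and promoters from RefSeq (GRCm38.p6).

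Ratios were turned to treated over untreated, and both orientations were required for a set value. This requirement was settled after a first run in which 1 orientation was enough (14545 probes tested), which is kept as an alternative. Raw ratios of dye-swapped arrays should correlate below 0. They ran from -0.785 to 0.352 over 48 pairs, 9 of them above 0. limma 3.58.1 in R 4.3.3 fitted 1 mean per group to all 48 set values (32 residual degrees of freedom), with two-sided tests, Benjamini-Hochberg adjustment over all 13698 probes within each comparison and a threshold of 0.05. Lists used probes averaged per gene (11593 rows). Python 3.11.15 ran the exact permutation tests.

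The main limma and permutation tests did not pair sets, and the set as a replicate block was an alternative. Sets were judged to pair where same-numbered sets deviated together in every pair (r above 0.1). This held, with lowest r of 0.122 to 0.462, for both dual ligands against LPS, for 2MA against LPS (from 0.147), for IFNG against LPS at 1 and 4 h, for LPS at 4 h against 2 h (0.122) and for LPS+2MA at 4 h against 2 h (0.276). It did not hold for LPS at 2 h against 1 h (-0.232) or IFNG against LPS at 2 h (-0.0398).

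The members, the lists and the tests were chosen with earlier results of these data known. Named are all member probes, per list the 2 largest called rises and falls in LPS at 1 and 4 h, and the 5 genes most like each member; others are marked as chosen after their values were seen. Some promoter motifs that were searched are not reported here, so the matches shown are a selection from a longer search.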

Additional observations from a re-analysis of the deposited data

Results flagged for a closer look

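The difference between the Tnf and the Zfp36 response stood out because the treatments differed in it by a direct test. For IFNG against LPS it averaged -2.37 (exact permutation, adjusted p = 0.001), with all 9 IFNG set values below all LPS values. For LPS+IFNG against LPS it averaged -0.96 (exact permutation, adjusted p = 0.0055), a call that was lost without set 1 (-0.94) or set 2 (-0.83) or with zeros kept as 0 (-0.65). Both comparisons use the same LPS sets, and the test was added after the values had been seen.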

How the results depend on the processing

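The 190 results, each Tnf and Zfp36 probe in each comparison and the Tnf minus Zfp36 tests, gave 2781 values on the same side of the threshold as reported, 56 that lost the call, 86 that gained it and 0 that reversed, over all alternatives. The cause of a change was not tested, except that leaving out a set or using 1 orientation leaves fewer arrays. Quantile normalisation gives all arrays the same distribution of ratios, although treatments differed in how many probes responded. In the main fit 268 probes were called under 2MA at 4 h and 3829 under LPS at 4 h. With that normalisation the counts were 574 and 2739. How far its changes of call come from this levelling was not tested. Signal over background was not analysed here, so low-signal ratios cannot be singled out. Values below are log2 differences, or adjusted p where marked p, and a response is named by treatment and time.

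With the set as a replicate block, Tnf probe 12240 gained LPS+2MA minus 2MA at 1 h (1.56) and 2MA 4 h (0.98). Tnf probe 15709 gained 2MA minus LPS at 1 h (-1.57). Zfp36 probe 15710 gained 2MA 2 h minus 1 h (-1.59), LPS+2MA minus 2MA at 1 h (1.21), LPS+2MA 4 h minus 2 h (0.95), LPS+IFNG minus sum at 1 h (-1.82), LPS+IFNG minus LPS at 2 h (1.25), LPS+IFNG minus sum at 2 h (-1.50) and LPS 4 h minus 2 h (1.13). It changed no other call of a probe. Where sets do not pair (1 h of LPS+2MA minus 2MA, the sums with IFNG, 2MA at 2 h minus 1 h) these values only share a number. For Tnf minus Zfp36 the block kept each call (LPS times p 0.0312, IFNG minus LPS -2.37, LPS+IFNG minus LPS -1.02).

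With zeros kept, Zfp36 probe 15710 lost 2MA minus LPS at 2 h (-1.43), 2MA times (p 0.276) and LPS times (p 0.117). No LPS or 2MA array lacked a Zfp36 value, so these values were unchanged and only the shared estimate of the spread differed. With all arrays, a dye term and a random set block, Tnf probe 12240 gained 2MA minus LPS at 1 h (-1.18), LPS+2MA minus 2MA at 1 h (1.56), LPS+IFNG minus sum at 4 h (-1.48) and 2MA 4 h (0.98). Tnf probe 15709 gained 2MA minus LPS at 1 h (-1.57), 2MA times (p 0.0198), IFNG times (p 0.0325), LPS times (p 0.0449), LPS+2MA minus sum at 1 h (-1.85), LPS+IFNG minus sum at 2 h (-1.53), LPS+IFNG minus sum at 4 h (-1.67) and 2MA 4 h (0.85). Zfp36 probe 15710 gained 2MA 2 h minus 1 h (-1.59), LPS+2MA times (p 0.0447), IFNG minus LPS at 4 h (-0.86), LPS+2MA minus 2MA at 1 h (1.03), LPS+2MA minus sum at 1 h (-1.93), LPS+2MA 4 h minus 2 h (0.95), LPS+IFNG minus IFNG at 1 h (1.13), LPS+IFNG minus sum at 1 h (-1.83), LPS+IFNG minus LPS at 2 h (1.25), LPS+IFNG minus sum at 2 h (-1.50), LPS+IFNG minus IFNG at 4 h (0.84), LPS 4 h minus 2 h (1.13) and 2MA 2 h (0.73). With quantile normalisation between arrays, Tnf probe 12240 lost 2MA minus LPS at 2 h (-1.03), 2MA minus LPS at 4 h (-0.37), IFNG minus LPS at 4 h (-0.71), LPS+2MA minus 2MA at 2 h (0.75), LPS+2MA minus 2MA at 4 h (0.37), LPS+IFNG minus IFNG at 2 h (0.77) and LPS+IFNG minus IFNG at 4 h (0.40). Tnf probe 15709 lost 2MA minus LPS at 4 h (-1.11), IFNG minus LPS at 4 h (-1.07), LPS+2MA minus 2MA at 1 h (0.37), LPS+2MA minus 2MA at 4 h (1.30), LPS+IFNG minus IFNG at 2 h (1.43) and LPS+IFNG minus IFNG at 4 h (0.61). Tnf probe 12240 gained LPS times (p 0.0137), LPS+2MA minus sum at 1 h (-3.19), LPS+2MA minus sum at 2 h (-2.31), LPS+IFNG minus sum at 2 h (-2.29) and 2MA 4 h (1.72). Tnf probe 15709 gained 2MA times (p 0.0295), LPS times (p 0.00157), LPS+2MA minus sum at 1 h (-3.67), LPS+2MA minus sum at 2 h (-2.49), LPS+IFNG minus sum at 2 h (-2.80), LPS 4 h minus 2 h (-1.71) and 2MA 4 h (1.41). Zfp36 probe 15710 gained 2MA 2 h minus 1 h (-2.67), IFNG times (p 0.0143), LPS+IFNG times (p 0.0497), IFNG minus LPS at 2 h (1.25), LPS+2MA minus sum at 1 h (-3.62), LPS+IFNG minus sum at 1 h (-3.81), LPS+IFNG minus sum at 2 h (-2.66), LPS 2 h minus 1 h (-1.29) and 2MA 2 h (0.83). With only the compared groups in the fit, Tnf probe 15709 lost LPS+2MA minus 2MA at 1 h (1.97). Zfp36 probe 15710 lost 2MA times (p 0.321). Tnf probe 12240 gained IFNG times (p 0.0141) and IFNG 2 h minus 1 h (0.83). Tnf probe 15709 gained IFNG times (p 0.00281), IFNG 2 h minus 1 h (0.97) and 2MA 4 h (0.85). Zfp36 probe 15710 gained LPS+IFNG minus IFNG at 1 h (0.97) and LPS 4 h minus 2 h (1.13). With treated RNA in Cy5 only, Tnf probe 12240 lost IFNG minus LPS at 4 h (-1.71), LPS+IFNG minus IFNG at 4 h (1.62) and IFNG 2 h (1.19). Zfp36 probe 15710 lost 2MA times (p 0.0803). With probes of a gene averaged, Tnf probe 12240 gained LPS+2MA minus 2MA at 1 h (1.76). With treated RNA in Cy3 only, Tnf probe 12240 gained LPS+IFNG minus sum at 4 h (-1.56) and 2MA 4 h (0.86). Tnf probe 15709 gained 2MA 4 h (0.95). Zfp36 probe 15710 gained 2MA 2 h (0.94). For Tnf minus Zfp36, LPS+IFNG minus LPS was -0.65 with zeros kept, and 2MA minus LPS was -0.75 with Tnf probe 15709.

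Leaving out each set in turn gave these ranges where a call changed. For the Tnf minus Zfp36 tests they were LPS times p 0.0286 to 0.257, LPS+IFNG minus LPS -1.12 to -0.83. For Tnf probe 12240 they were 2MA minus LPS at 2 h -2.27 to -1.82, 2MA minus LPS at 4 h -2.04 to -1.91, IFNG minus LPS at 4 h -1.60 to -1.51, LPS+IFNG minus IFNG at 2 h 1.85 to 2.42, LPS+IFNG minus IFNG at 4 h 1.33 to 1.70, 2MA 1 h 1.47 to 2.37, 2MA 2 h 1.08 to 1.55, IFNG 2 h 1.09 to 1.27. For Tnf probe 15709 they were 2MA times p 0.0026 to 1, LPS times p 0.0135 to 1, IFNG minus LPS at 4 h -2.11 to -1.76, LPS+2MA minus 2MA at 1 h 0.99 to 2.61, LPS+2MA minus sum at 1 h -2.63 to -1.26, LPS+IFNG minus sum at 2 h -1.65 to -1.35, LPS+IFNG minus IFNG at 4 h 1.49 to 1.93, LPS+IFNG 4 h minus 2 h -1.10 to -0.54, LPS+IFNG minus sum at 4 h -1.83 to -1.53, LPS 4 h minus 2 h -1.19 to -0.66, 2MA 1 h 1.68 to 2.88, 2MA 2 h 1.21 to 1.58, IFNG 2 h 1.24 to 1.35. For Zfp36 probe 15710 they were 2MA 2 h minus 1 h -1.99 to -1.19, 2MA minus LPS at 2 h -1.66 to -1.21, 2MA times p 0.000374 to 1, LPS times p 0.00024 to 0.2, LPS+2MA times p 0.00328 to 0.873, IFNG minus LPS at 4 h -0.96 to -0.71, LPS+2MA minus sum at 1 h -2.13 to -1.79, LPS+2MA 2 h minus 1 h -1.09 to -0.17, LPS+2MA 4 h minus 2 h 0.72 to 1.26, LPS+IFNG minus LPS at 1 h 0.27 to 1.19, LPS+IFNG minus LPS at 2 h 1.20 to 1.31, LPS+IFNG minus IFNG at 4 h 0.75 to 0.97, LPS+IFNG minus sum at 4 h -2.67 to -2.13, LPS 4 h minus 2 h 1.07 to 1.21.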

Other observations

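The first TNF receptor gene, Tnfrsf1a, named here after its values were seen, had 1.08 ± 0.19 at 1 h and 1.28 ± 0.27 at 4 h of IFNG, against 0.12 ± 0.12 and 0.79 ± 0.11 at 1 and 4 h of LPS (log2 ratio of treated over untreated RNA, SD, n = 3). It passed the limma test against untreated cells under IFNG at both times (adjusted p = 5.81e-09 and 1.52e-11) and under LPS at 4 h (3.56e-07). The difference between IFNG and LPS was not tested for it. Birc3, also named after its values were seen, encodes an inhibitor of apoptosis bound to TNF receptor complexes. Its ratio was 1.53 ± 0.21 at 4 h of IFNG, against 1.66 ± 0.54 at 4 h of LPS.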
